A study of Arabidopsis thaliana with 8 samples.

Results

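Messenger RNA of wild-type (wt) Arabidopsis thaliana leaves was described here by the loci that make it up, ranked by level. The members were the 4 wild-type libraries of the series, of 8 in all. The other 4 libraries came from dcl1 mutants. Their counts entered a single test, with its filter, scaling and simulated check, and a check of the replicate numbers. No level given below is from them. The plants had no specific treatment and grew at 25 °C by day and 18 °C by night, with 16 hours of light. The sources used here do not give their age or the hour of harvest. RNA from leaf tissue was extracted with Tri-reagent and messenger RNA was picked with Dynabeads. Libraries were then made with standard Illumina adapters (IL, 2 libraries) or with high definition (HD) adapters (2 libraries), which carry random bases where they are ligated to the RNA. Per the series' design text, the same RNA samples served for both kinds of adapter. It does not say whether a replicate number marks the same RNA sample with both adapters. The 4 libraries are therefore not 4 independent RNA samples, and the labels do not say whether the replicates were separate plants. The SD given below over n = 4 libraries holds the difference between adapters and the difference between replicates, which may be technical.

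In a green leaf, light is caught by chlorophyll bound to the light-harvesting complexes, LHCA around photosystem I and LHCB around photosystem II. The photosystems pass electrons through plastocyanin and ferredoxin, and the ATP synthase makes ATP from the resulting proton gradient. ATP and reducing power drive the Calvin cycle, whose first step is the fixation of carbon dioxide by Rubisco. Rubisco also reacts with oxygen, and photorespiration recovers the carbon lost in that side reaction. The antenna proteins, many outer photosystem subunits and the small subunit of Rubisco (RBCS) are encoded in the nucleus, while the photosystem cores and the large subunit of Rubisco are encoded in the chloroplast. No locus encoded in the chloroplast or the mitochondrion was among those counted, so that the description covers loci annotated in the nucleus alone.

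The wild-type libraries held 21537881 and 40516219 counts with HD adapters (replicates 1 and 2), and 21733499 and 40382700 counts with standard adapters. Replicate 2 thus had more counts than replicate 1 with both adapters, so replicate and depth cannot be told apart. Ribosomal RNA loci took 26.8% and 27.4% of the counts in the HD libraries, and 17.7% and 19.9% in the standard libraries. The 5 ribosomal loci were left out of all that follows, which left between 15767866 and 32330291 counts per library. A level in CPM is a locus's counts per 1000000 of the remaining counts. It grows with transcript length, so levels of different genes were compared in TPM, which divides the counts by the length of the annotated exons and is scaled to 1000000 per library. At 10 CPM the counting error alone was 5.56% to 7.96% of the value, and at 1000 CPM it was 0.556% to 0.796%. Intervals of this kind cover counting error only, as the libraries had no molecular identifiers.

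Counts were concentrated in few loci. The most abundant locus took 3.74% and 3.41% of the counts in the HD libraries and 4.28% and 4.04% in the standard libraries. The 10 most abundant loci of each library took 18.0% ± 1.11 (SD, n = 4) and the 100 most abundant took 40.7% ± 1.56. The number of loci needed to reach 50% of the counts was 257 and 312 with HD adapters and 220 and 264 with standard adapters. Replicate 2 of the HD libraries had the flattest distribution and replicate 1 of the standard libraries the steepest. Of the 21941 loci with a count in a wild-type library, the 6 with a mean of at least 10000 CPM held 14.5% ± 0.846 of the counts. A further 91 loci between 1000 and 10000 CPM held 25.8% ± 0.768, and 1218 loci between 100 and 1000 CPM held 27.8% ± 0.563. The 8919 loci between 10 and 100 CPM held 28.4% ± 0.911. At the other end, 7266 loci between 1 and 10 CPM held 3.34% ± 0.169, and 4441 loci under 1 CPM held 0.139% ± 0.0234.

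**Figure D1:**
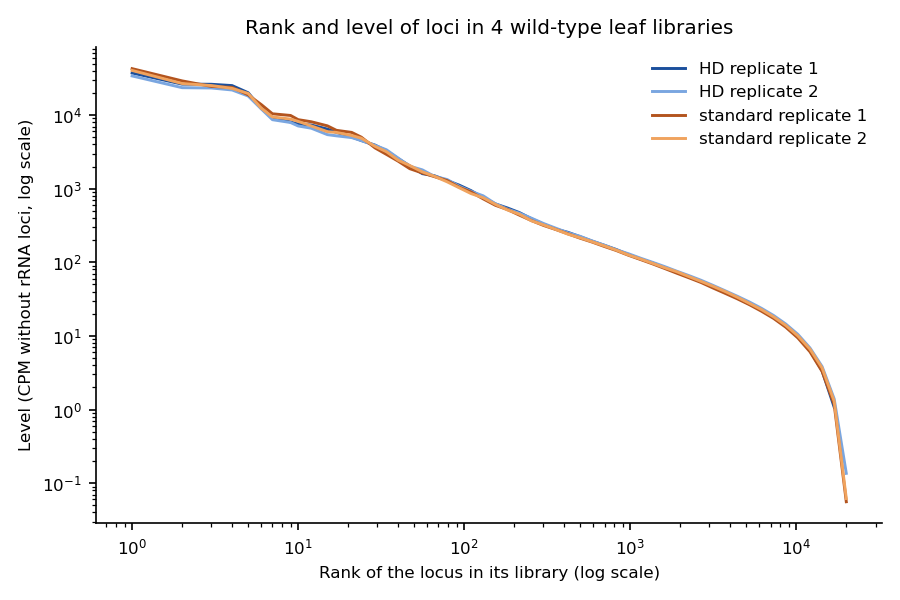
Level in CPM without ribosomal RNA loci (vertical, log scale) against the rank of the locus in its own library (horizontal, log scale), with 1 line for each of the 4 wild-type libraries. The 4 lines lie close together from the most abundant locus, at 34077 to 42777 CPM, down to the loci under 1 CPM.

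The order was much the same in the 4 libraries. Of the 10 most abundant loci of a library, 8 were shared by all 4 libraries, of the 30 most abundant 28 were shared, and of the 100 most abundant 89 were shared. Across the 17500 loci with a mean of at least 1 CPM, Spearman's rho between pairs of libraries was 0.942 to 0.971. These values are across genes, not over independent samples, and the libraries share RNA. The coefficient of variation over the 4 libraries had a median of 8.99% among the 100 loci of highest mean CPM. It was 16.4% among loci of 10 to 100 CPM and 37.3% among loci of 1 to 10 CPM. By annotation, 98.9% ± 0.158 of the counts were at protein-coding loci, as were all of the 100 most abundant loci.

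The antenna genes came first. LHCB1 proteins form the main part of the mobile antenna of photosystem II, and their 5 genes held the first 5 places by mean CPM. Together the 5 genes took 13.5% and 12.1% of the counts in the HD libraries and 13.9% and 13.5% in the standard libraries. LHCB1.3 had 37382 and 34077 CPM in the HD libraries and 42777 and 40430.3 CPM in the standard libraries, and it was the most abundant locus in each. In TPM, LHCB1.3 (AT1G29930) had 46615 ± 4832 (SD, n = 4), LHCB1.5 (AT2G34420) 35365 ± 1615, LHCB1.2 (AT1G29910) 32012 ± 3038, LHCB1.1 (AT1G29920) 26519 ± 1450.0 and LHCB1.4 (AT2G34430) 21709 ± 1003. The values of LHCB1.3 lay above those of LHCB1.5 in all 4 libraries, and those of LHCB1.1 above those of LHCB1.4. The values of LHCB1.5 and LHCB1.2 overlapped, with LHCB1.5 higher in 3 of 4 libraries, so their order is not separated from the spread. By share of the family's TPM, LHCB1.3 took 28.7%, LHCB1.5 21.8%, LHCB1.2 19.7%, LHCB1.1 16.4% and LHCB1.4 13.4%.

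LHCB1.1, LHCB1.2 and LHCB1.3 lie next to each other on chromosome 1, from base 10472280 to base 10479114 in the TAIR10.1 annotation of RefSeq, and each has 1 exon. LHCB1.4 and LHCB1.5 lie side by side on chromosome 2, from base 14522524 to base 14525918. Of the 50-base words in the annotated exons of the LHCB1 genes, 10.6% (LHCB1.2) to 22.3% (LHCB1.5) also occur at another counted locus. The sources used here do not say how a read with several matches was counted. The shares within the family and the sum of the family are both uncertain to that extent.

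The other antenna genes followed at lower levels. In TPM, LHCB5 and LHCB6, which link the antenna to the core of photosystem II, had 8208 ± 522 and 5752 ± 573. LHCB3, a part of the bound antenna trimer, had 6758 ± 316. LHCB4.1, which encodes the linker CP29, had 6486 ± 433. LHCB4.2, which encodes the same kind of protein, had 4005 ± 741, while LHCB4.3 had 46.0 ± 2.06. LHCB2.1 and LHCB2.2 had 6960.4 ± 1610.3 and 8052 ± 1694, the widest spread relative to the mean among the antenna genes above 1000 TPM.

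The 3 LHCB2 genes were higher in replicate 1 than in replicate 2 with both adapters, as were 44% of the first 100 loci. For each of them both libraries of replicate 1 lay above both libraries of replicate 2, as they did at 22% of the first 100 loci. LHCB2.1 had 6693 CPM in replicate 1 and 5155 in replicate 2 with HD adapters, and 8671 and 5885 with standard adapters. LHCB2.2 had 6455 and 4934 CPM with HD adapters, and 7918 and 5528 with standard adapters. LHCB2.3 had 1075 and 809 CPM with HD adapters, and 1249 and 891 with standard adapters. Of the words of LHCB2.1, LHCB2.2 and LHCB2.3, 22.7%, 28.2% and 38.6% also occur at another counted locus. LHCB2.1 and LHCB2.2 share the most with each other, so their levels are not fully separate observations. The difference between the replicates was not tested. Among antenna genes of photosystem I, LHCA4 had 10816 ± 882 TPM, LHCA1 9584 ± 1826, LHCA2 8081 ± 535 and LHCA3 7036 ± 562. LHCA5 and LHCA6, whose proteins are known as minor antenna components, had 191 ± 21.2 and 123 ± 10.9 TPM. The 20 antenna genes of both photosystems together took 20.8% ± 1.45 of the counts and 24.5% ± 1.78 of the TPM, and 17 of them were among the 100 most abundant loci.

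**Figure D2:**
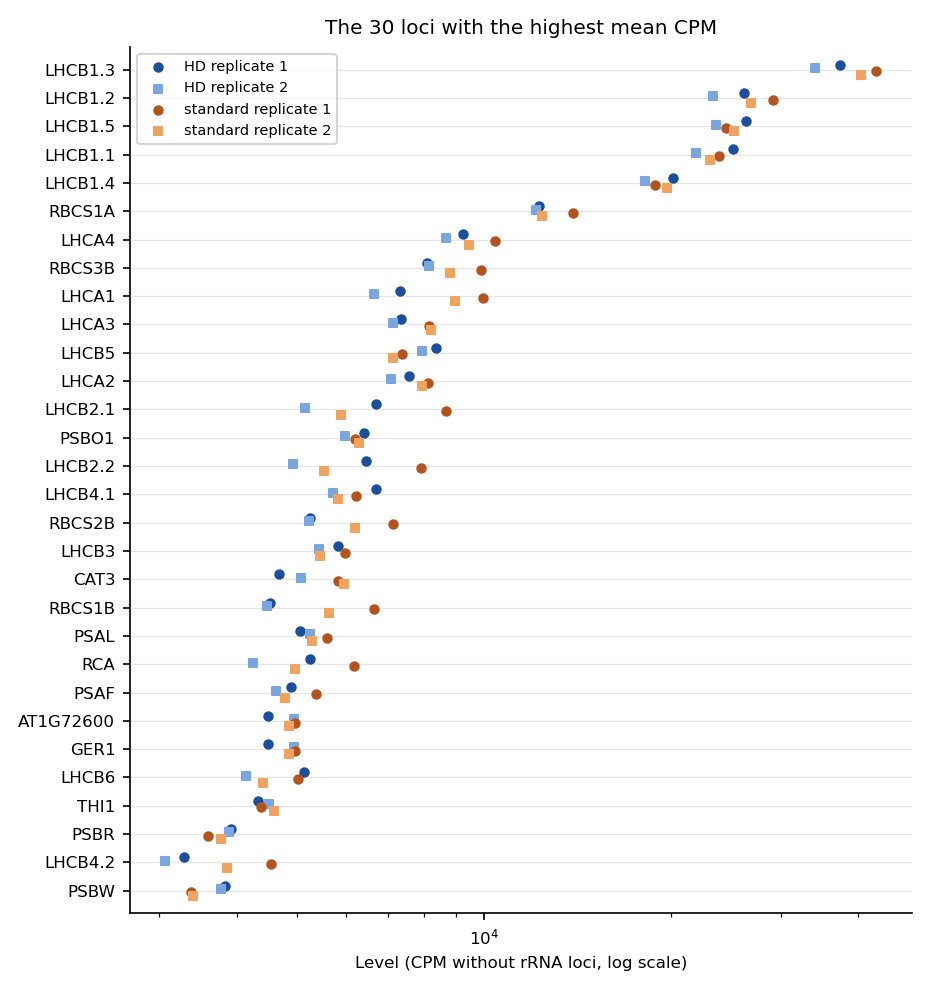
Level in CPM without ribosomal RNA loci (horizontal, log scale) of the 30 loci with the highest mean over the 4 wild-type libraries, with 1 point per library (circles replicate 1, squares replicate 2, blue HD adapters, orange standard adapters). The 5 LHCB1 genes stand apart at 18179 to 42777 CPM, followed by RBCS1A at 12134 to 13874 CPM.

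Many subunits of the photosystems were also among the most abundant loci. Of 12 nuclear subunits of photosystem II, 10 were among the 100 most abundant loci. PSBO1, which encodes the protein that stabilises the manganese cluster of water oxidation, had 6105 ± 190.3 TPM and PSBR 7165 ± 243. PSB27, which takes part in assembly and repair, was the lowest of the 12 at 324 ± 27.5 TPM. PSBS, which encodes the sensor of excess light, had 667 ± 80.4 TPM. Of 12 subunits of photosystem I, again 10 were among the 100 most abundant loci, led by PSAL with 6881 ± 327 TPM and PSAF, a docking site of plastocyanin, with 6061 ± 411. The photosystem I list took 2.88% ± 0.0658 of the counts and the photosystem II list 2.78% ± 0.170.

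Among carriers of electrons, plastocyanin was mostly from PETE2 with 3627 ± 197 TPM, and leaf ferredoxin from FD2 with 1940.3 ± 185. PETC, the Rieske protein of the cytochrome complex, had 1601 ± 75.1 TPM and ATPC1, a subunit of the ATP synthase, 1364 ± 77.8. PGR5, which takes part in cyclic electron flow, was the lowest of the 12 members of that list at 73.2 ± 20.0 TPM. The list of electron transport and ATP synthase genes took 1.14% ± 0.0418 of the counts. Over the light reactions as a whole, 56 loci in 4 lists took 27.6% ± 1.46 of the counts and 34.2% ± 1.77 of the TPM.

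Carbon fixation was dominated by Rubisco. The 4 RBCS genes took 3.01% and 2.9996% of the counts in the HD libraries and 3.76% and 3.30% in the standard libraries. RBCS1A (AT1G67090, chromosome 1) had 12275 and 12134 CPM with HD adapters and 13874 and 12378 CPM with standard adapters. In TPM RBCS1A had 14807 ± 1005, RBCS2B 9449 ± 1510.2, RBCS3B 9189 ± 934 and RBCS1B 4169 ± 842. RBCS2B and RBCS3B each led in 2 of the 4 libraries, so no order between them can be given. RBCS1B, RBCS2B and RBCS3B lie within 1 cluster on chromosome 5, from base 15376988 to base 15385320, and 13.8% to 21.4% of their 50-base words also occur at another counted locus. RBCS1A made 39.5% ± 1.96 of the family's TPM. RBCS1B made 11% ± 0.991, or 13.5% when the median length of annotated transcripts was used in place of the exons.

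Rubisco activase (RCA), which frees blocked Rubisco sites, had 3642 ± 573 TPM. It was higher in replicate 1 with both adapters, at 5240.1 against 4249 CPM with HD and 6184 against 4971 CPM with standard adapters. The enzymes that turn the cycle after Rubisco were lower, for example the plastid aldolase FBA2 at 1943 ± 401 TPM, the phosphoglycerate kinase PGK1 at 1120.2 ± 65.1, phosphoribulokinase (PRK) at 922 ± 154 and sedoheptulose-bisphosphatase (SBPASE) at 400.0 ± 38.8. CP12-3 and TKL2 closed the list of 24 members at 13.6 ± 3.96 and 2.16 ± 0.697 TPM. The Calvin cycle list took 5.13% ± 0.478 of the counts, and 12 of its members were among the 100 most abundant loci. All 24 members reached 1 CPM in each of the 4 libraries.

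Photorespiration and pigment synthesis were present at levels below those of the photosystems. The 18 photorespiration genes took 1.02% ± 0.0276 of the counts. SHM1, the mitochondrial serine hydroxymethyltransferase, had 914 ± 77.1 TPM, AGT1, the serine:glyoxylate aminotransferase, 914 ± 51.0 and GLN2, the plastid glutamine synthetase, 751 ± 41.8. GOX1, one of the glycolate oxidases, had 595 ± 60.4 TPM. The 18 genes of chlorophyll synthesis took 0.771% ± 0.0787 of the counts. CRD1, an enzyme of the cyclase step, had 1315 ± 160 TPM, CHLP, which makes the phytyl tail, 1029.8 ± 118 and PORB, which reduces protochlorophyllide, 867 ± 84.4. CHLH, the large subunit of magnesium chelatase, ranked 49 by CPM but had 585 ± 67.4 TPM, since its annotated exons are 4757 bases long. The carbonic anhydrase genes took 0.220% ± 0.0159 of the counts, of which CA1 had 721 ± 61.5 TPM.

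**Figure D3:**
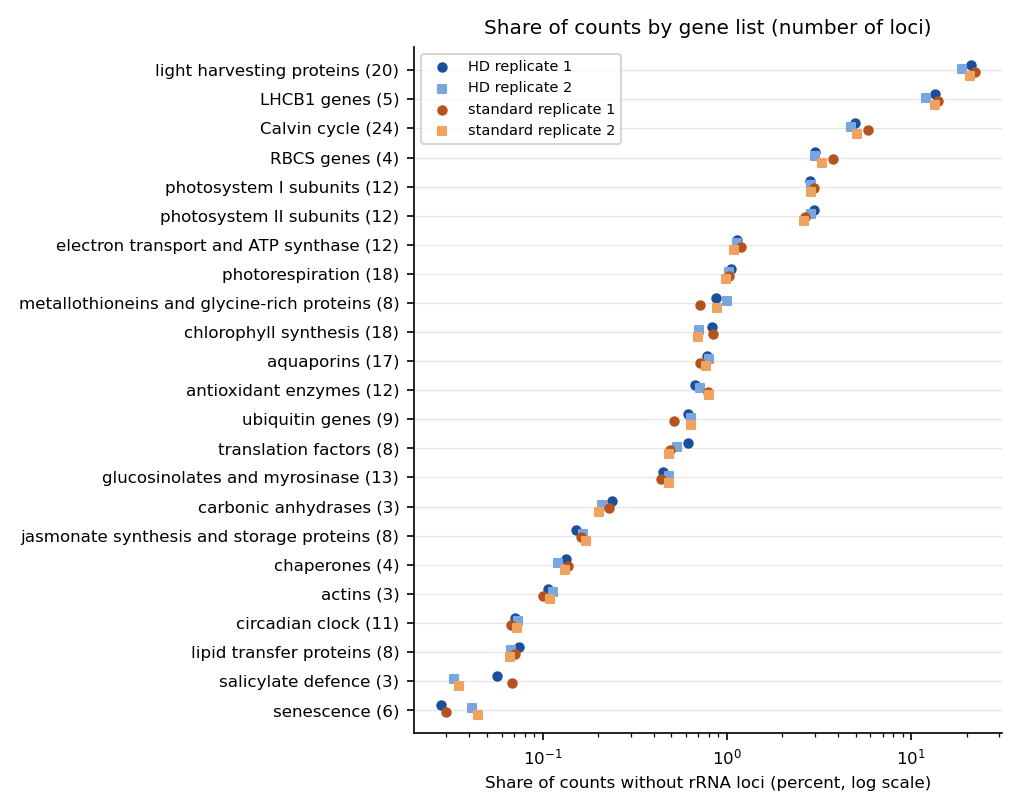
Share of the counts without ribosomal RNA loci, in percent on a log scale, taken by each gene list in each of the 4 wild-type libraries (the number of loci in each list stands in brackets, and the LHCB1 and RBCS genes are also part of a larger list). The antenna list lies at 18.8% to 22.3% and the 3 salicylate defence genes at 0.0329% to 0.0683%, with both replicate 1 libraries above both replicate 2 libraries.

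Together, 119 loci of photosynthesis, photorespiration, carbonic anhydrase and chlorophyll synthesis took 35.1% and 32.3% of the counts in the HD libraries and 37.0% and 34.4% in the standard libraries. Of the 100 most abundant loci, 62 were among these 119, and the 62 alone took 32.8% ± 1.94 of the counts. By comparison, 323 loci whose product is named a ribosomal protein took 2.04% ± 0.0463, and none of them ranked among the first 100. The highest of these, named after its values were seen, was AT5G24490, annotated as a 30S ribosomal protein, with 1058 ± 97.4 TPM. Loci named as transcription factors or DNA-binding proteins, 1037 in number, took 1.15% ± 0.0631. Loci named as protein kinases or receptor-like kinases, 872 in number, took 1.73% ± 0.0637. Among these SOBIR1, a receptor-like kinase of immunity also named after its values were seen, had 192 ± 17.6 TPM. The median over the 21846 loci with a count and a length was 7.36 TPM.

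Genes outside photosynthesis that ranked among the first 100 had many roles. CAT3, a catalase that removes hydrogen peroxide in peroxisomes, ranked 19 with 4673 and 5068 CPM in the HD libraries and 5822 and 5957 CPM in the standard libraries. THI1, which makes the thiazole ring of vitamin B1, was steady at 4331 to 4593 CPM and had 4109.8 ± 140 TPM. GRP7, a glycine-rich RNA-binding protein under clock control, had 3379 and 3989 CPM with HD adapters and 2514 and 3428 CPM with standard adapters. MT2B, a metallothionein, had 4292 ± 546 TPM, and UBQ10, a polyubiquitin gene, 2373 ± 279. GRP3, a glycine-rich protein, had 2225 ± 224 TPM.

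TIP1;2 and TIP2;1, water channels of the vacuole membrane, had 2970.4 ± 108 and 1548 ± 259 TPM. The myrosinases TGG1 and TGG2, which break down glucosinolates when tissue is damaged, had 1599 ± 163 and 956 ± 131 TPM. HSC70-1, a constitutive chaperone, had 676 ± 43.1 TPM. The elongation factor genes EEF1A2, EEF1A3 and EEF1A4 stood just outside the first 100, at 722 ± 109, 679 ± 107 and 621 ± 70.2 TPM. The levels of EEF1A2 and EEF1A3 are uncertain, as 66.2% and 44.9% of their words also occur at another counted locus. The actins ACT2, ACT7 and ACT8 had 380.2 ± 28.4, 213 ± 26.3 and 163 ± 13.2 TPM. LOX2, a lipoxygenase of jasmonate synthesis, had 394 ± 26.8 TPM.

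A group of 28 loci among the first 100 belonged to none of the gene lists. GER1, AT1G72600 and THI1 were the first of these by rank, and the others named here were chosen after their values were seen. They included BGAL1, a beta-galactosidase, DIN10, annotated in the raffinose synthase family, AT2G33830, annotated as dormancy- and auxin-associated, and the sugar transporter STP1. Also in this group were VAR2 and CLPC1, which serve protein turnover in the chloroplast, and PEN3, a transporter of defence at the cell surface. BGAL1, DIN10 and AT2G33830 had replicate 2 at least 1.2-fold above replicate 1 in CPM with both adapters, as had MEE14 and TGG2. The ratios ran from 1.22 to 1.496 in these 4 loci and from 1.21 to 1.296 for TGG2. With replicate 1 at least 1.2-fold above replicate 2 with both adapters there were also 5 loci, RCA, GAPA2 and the 3 LHCB2 genes. In all, 76 of the first 100 loci had the same replicate higher with both adapters, against 60.6% of the 10234 loci with a mean of at least 10 CPM.

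Some pairs of neighbouring loci had nearly the same counts. GER1 (a germin-like protein) and AT1G72600 ranked 25 and 24, overlap on opposite strands of chromosome 1, and differed by at most 0.0787% in counts in any of the 4 libraries. MT2B and AT5G02370 lie 516 bases apart on opposite strands in the RefSeq annotation and differed by at most 0.0845%. The overlapping pair AILP1 and AT5G19150 had 1489 and 1386 CPM, a closeness noticed after the values were seen. Whether the same reads were counted at both loci of a pair was not tested, and the levels of these loci are each uncertain. There were 17 neighbouring pairs at or above 10 CPM whose counts lay within 2% in all 4 libraries, and their second members held 0.712% of the counts. Of the first 100 loci, 31 overlapped the span of another counted locus, but in 5 of them that other locus reached 10% of the level or more.

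Within most pairs of related genes, 1 gene carried most of the RNA. Ratios of TPM were taken within 30 such pairs. The first gene was above the second in all 4 libraries in 27 pairs, and at least 2-fold above it in all 4 in 21 pairs. The order of each pair was set with earlier results known, so these counts describe the pairs and are not a test. The transketolase TKL1 was 315 ± 89.4 times as high as TKL2, with 226 to 396 times in single libraries. LHCB4.1 was 141 ± 5.98 times as high as LHCB4.3. FBA2 was 36.8 ± 8.996 times as high as FBA3, and FD2 was 13.6 ± 0.837 times as high as FD1.

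Among catalases, CAT3 was 18.1 ± 3.13 times as high as CAT2, which is usually taken as the main photorespiratory catalase of leaves, and 25.2 ± 3.43 times as high as CAT1. With median transcript lengths these ratios were 18.9 to 28.3 and 32.7 to 43.1 in single libraries. PORB was 40.1 ± 21.1 times as high as PORA, with 25.0 to 71.2 times in single libraries, and 6.27 ± 0.575 times as high as PORC. PETE2 was 8.50 ± 0.378 times as high as PETE1, GRP7 was 8.61 ± 0.930 times as high as GRP8, and PSBO1 was 3.77 ± 0.244 times as high as PSBO2. With median transcript lengths the PETE2 ratio was 7.24 to 7.94 and the GRP7 ratio 5.81 to 7.42 in single libraries. GAPA1 and GAPA2, a pair of plastid GAPDH genes, had a ratio of 1.002 ± 0.136 that lay on both sides of 1. LFNR2 over LFNR1, the ferredoxin-NADP reductases, was 0.947 to 1.06 with exon lengths and 1.11 to 1.25 with median transcript lengths, so its direction depended on the length used. PSAH1 was below PSAH2 in TPM, with a ratio of 0.696 ± 0.0610, but above it in CPM, with a ratio of 1.29 ± 0.113. The direction thus depended on the division by length, and 49.2% of the words of PSAH1 also occur at another counted locus.

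**Figure D4:**
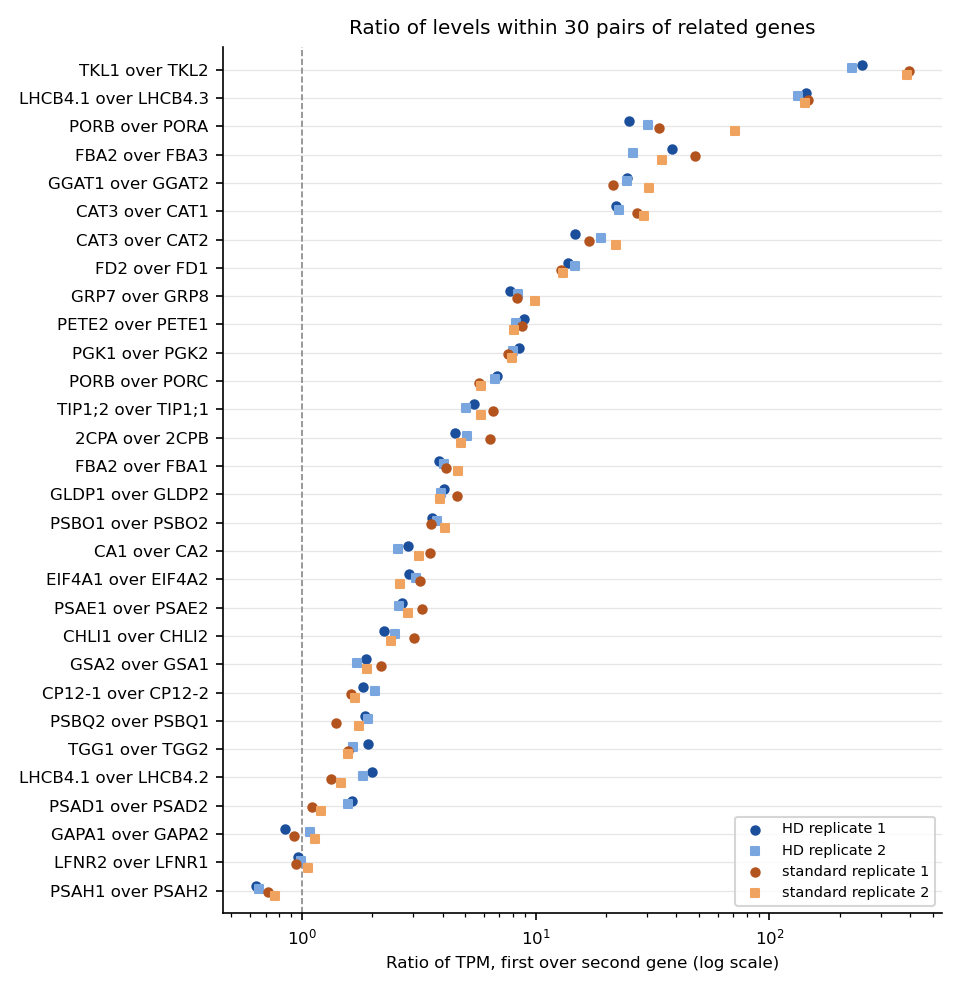
Ratio of TPM of the first over the second gene (horizontal, log scale) in 30 pairs of related genes, with 1 point for each of the 4 wild-type libraries and a dashed line at a ratio of 1. The ratios of TKL1 over TKL2 lie at 226 to 396, and those of GAPA1 over GAPA2 and LFNR2 over LFNR1 lie on both sides of the line.

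The hour of the day leaves a mark on leaf RNA through the circadian clock, in which CCA1 and LHY peak near dawn and TOC1, GI, LUX, ELF3 and ELF4 peak later in the day or evening. The levels of the clock genes lay in 2 separate ranges. CCA1 had 1.92 ± 0.567 TPM, LHY 1.41 ± 0.562, PRR9 1.68 ± 0.952 and RVE8 0.639 ± 0.541. The remaining members were at 31.1 to 83.6 TPM, with ELF4 at 83.6 ± 17.7, PRR5 at 76.5 ± 9.72, GI at 64.0 ± 2.63, TOC1 at 62.2 ± 11.2 and PRR7 at 61.8 ± 5.86. In CPM, CCA1 had 3.55 and 2.07 with HD adapters and 4.25 and 4.24 with standard adapters, whereas TOC1 had 95.8 and 140.1 with HD adapters and 105 and 130.2 with standard adapters. The dawn gene CCA1, together with LHY, PRR9 and RVE8, was under every other clock gene in each library, on both scales. The hour of harvest is not given, so it is not known at which time of day this order was recorded.

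The evening element, AAAATATCT, is a short sequence through which clock proteins of the dawn act on evening genes. It was searched on both strands in the 250 bases before the annotated start of each gene, in the genome sequence of RefSeq (TAIR10.1). The element occurred before 7 of the first 100 loci (7%), against 2.36% of all 27444 nuclear protein-coding loci. The latter include 6335 loci with no count in any wild-type library, and the share among counted loci alone was not taken. The 7 loci were CAT3, GRP7, PEN3, CCL, ERD15, ATPC1 and MEE14, named because of the match, and GRP7 had 3 matches. The windows of CAT3 (chr1:7142722-7142971, plus strand) and GRP7 (chr2:9266558-9266807, minus strand) are shown because these were the 2 most abundant loci with the element. Each is read 5′ to 3′ on the gene's strand, and capitals mark the evening element or its reverse complement.
CAT3: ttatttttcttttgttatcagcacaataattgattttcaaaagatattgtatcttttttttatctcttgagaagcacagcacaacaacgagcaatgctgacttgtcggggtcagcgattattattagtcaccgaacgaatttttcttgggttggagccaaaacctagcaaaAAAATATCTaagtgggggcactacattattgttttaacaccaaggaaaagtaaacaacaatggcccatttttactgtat
GRP7: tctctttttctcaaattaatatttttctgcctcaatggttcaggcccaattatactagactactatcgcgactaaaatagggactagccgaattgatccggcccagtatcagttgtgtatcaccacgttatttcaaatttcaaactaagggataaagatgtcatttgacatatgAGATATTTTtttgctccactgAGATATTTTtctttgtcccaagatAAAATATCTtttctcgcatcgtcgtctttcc

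The match in CAT3 starts 79 bases before the annotated start, and those in GRP7 start 76, 55 and 31 bases before it. The G-box, CACGTG, occurred before 15 of the first 100 loci (15.0%) and 6.49% of all coding loci. The I-box, GATAAG, known from promoters of light-regulated genes, occurred before 22 of them (22.0%) and 12.3% of all. The TATA box, TATAAA, was found before 37 of them (37.0%) and 47.3% of all. A match is a description of letters in a window, and its distance depends on where the annotation puts the start of the gene.

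Genes of salicylate defence differed between the replicates. PR1, PR2 and PR5 encode secreted proteins that accumulate during immune responses. PR1 had 132 CPM in replicate 1 and 61.1 in replicate 2 with HD adapters, and 180.4 and 74.98 with standard adapters. PR2 had 251 and 169 CPM with HD adapters, and 286 and 164 with standard adapters. PR5 had 183 and 98.7 CPM with HD adapters, and 217 and 111 with standard adapters. For each of the 3 genes both libraries of replicate 1 lay above both libraries of replicate 2, as they did at 13.9% of the 10234 loci with a mean of at least 10 CPM. The difference between the replicates was not tested.

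Among senescence genes, SAG12 had no count in any library, SAG13 had 5.57 ± 0.976 TPM and WRKY53 14.5 ± 1.65. SEN1, known from dark-induced senescence, was higher at 246 ± 71.4 TPM, with replicate 2 above replicate 1 with both adapters at 248 against 150.4 CPM and 283 against 178 CPM. The heat shock genes HSP101 and HSP18.2 were low, at 2.67 ± 0.811 TPM and 1.08 ± 0.888 TPM. They belong to a list of 4 chaperones with a median of 37.5 TPM and a highest of 676 TPM.

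Markers of cell types were read next to check the labelled tissue. In bulk leaf, fewer cells of a type and less RNA per cell cannot be told apart. Epidermal and wax genes took 0.0939% ± 0.000958 of the counts, and KCS6, an enzyme of wax synthesis, led them with 333 ± 17.2 TPM. Phloem genes took 0.0425% and 0.0568% of the counts in replicates 1 and 2 with HD adapters, and 0.0344% and 0.0534% with standard adapters. PP2-A1 had 142 ± 26.4 TPM, SUC2, the sucrose transporter of companion cells, 115 ± 22.5 and SWEET11 80.5 ± 26.1. All 6 phloem markers were higher in replicate 2 than in replicate 1 with each adapter, as were 38.7% of the loci with a mean of at least 10 CPM. Guard cell genes took 0.00508% ± 0.000268, with MYB60 at 11.8 ± 2.01 TPM and FAMA at 10.8 ± 1.47, and xylem genes took 0.00454% ± 0.000163.

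Organs other than the leaf left little trace. The seed storage and oil body genes CRU2, CRU3 and OLEO1 had no count, and CRA1 and SESA1 each had counts in 1 of the 4 libraries, at 0.278 and 0.0634 CPM. Of floral organ genes, AP1 and AP3 had no count, and PI, AG and SEP3 had means of 0.592, 0.0781 and 0.184 TPM. The meristem genes WUS and CLV3 had no count and STM had a mean of 0.200 TPM. The root genes PYK10 and NRT2.1 had 0.723 ± 0.709 and 1.63 ± 0.627 TPM. Genes of dividing cells were low too, with KNOLLE, of whose words 31.0% also occur at another counted locus, at 3.34 ± 1.83 and CYCB1;1 at 0.570 ± 0.592 TPM. For a gene without a count, 3 counts set an upper limit of 0.190 CPM in the smallest library and 0.0928 CPM in the largest. Of the 27444 nuclear protein-coding loci annotated, 21109 (76.9%) had a count in at least 1 wild-type library and 15443 (56.3%) reached 1 CPM in all 4.

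**Figure D5:**
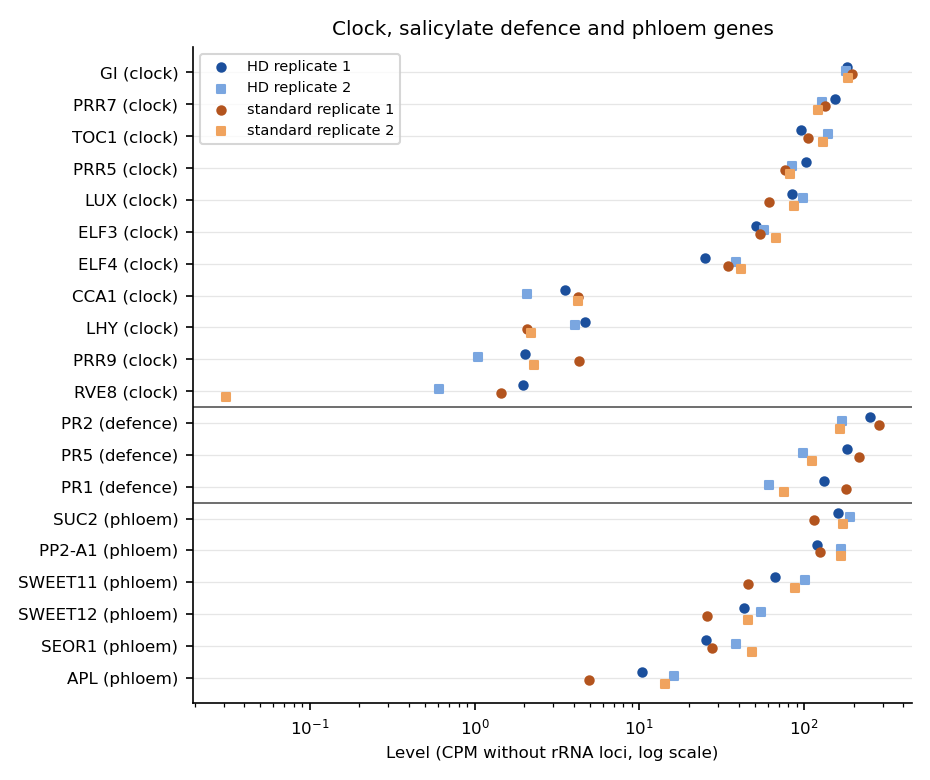
Level in CPM without ribosomal RNA loci (horizontal, log scale) of 11 clock genes, 3 salicylate defence genes and 6 phloem genes, with 1 point for each of the 4 wild-type libraries (circles replicate 1, squares replicate 2, blue HD adapters, orange standard adapters). CCA1, LHY, PRR9 and RVE8 lie under 5 CPM while the other clock genes lie at 25.0 to 195.3 CPM, and the squares lie left of the circles for the defence genes and right of them for the phloem genes within each adapter.

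The composition was then compared between adapters within wild type, with edgeR's quasi-likelihood F test on the counts of all 8 libraries and Benjamini-Hochberg adjustment over 19588 loci. The fit takes the libraries as independent, although both adapters were used on the same RNA samples. At an adjusted p under 0.05, 49 loci (0.25%) were called, 43 (0.22%) higher and 6 (0.0306%) lower with HD adapters. Without the filter on low counts there were 82 calls, 67 higher and 15 lower, and a fit with the replicate number as a block gave 179, 110 higher and 69 lower. Of the 100 most abundant loci, 3 were called. LHCA1 was lower with HD adapters by edgeR, at 7328 and 6638 CPM against 9946 and 8985 with standard adapters (log2 fold change -0.48, SE 0.10, adjusted p 0.0413). RBCS1B was lower too, at 4517 and 4472 CPM against 6659.9 and 5638 (log2 fold change -0.50 with an SE of 0.11, edgeR's adjusted p 0.0453). LHCA1 was not called without HD replicate 2 (log2 fold change -0.37) or without standard replicate 1 (-0.36). RBCS1B was not called without HD replicate 1 (-0.56), HD replicate 2 (-0.45) or standard replicate 1 (-0.33).

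AT3G43990, annotated as a protein with a bromo-adjacent homology domain, was higher with HD adapters, at 1908 and 1803 CPM against 439.9 and 469.9 CPM (log2 fold change 1.99 with an SE of 0.17, edgeR's adjusted p 3.19e-07). It ranked 91 by the mean, but between 49 and 213 in single libraries. The median absolute log2 fold change of the 100 loci was 0.14, and 23 of them had an unadjusted p under 0.05, against 897 (4.58%) of all 19588 loci tested, whose median absolute change was 0.27. Of the 43 loci higher with HD adapters, 31 were protein-coding, 8 were small nuclear RNAs, 3 were other non-coding RNAs and 1 was a small nucleolar RNA. The 6 lower ones were all protein-coding. Of the 21941 loci with a count in a wild-type library, 21109 were protein-coding, 13 small nuclear RNAs, 131 other non-coding RNAs and 63 small nucleolar RNAs. Some of the 31 protein-coding loci share sequence with small nuclear RNAs. In AT3G57770 and AT3G06895, 42.9% and 45.6% of the words occur at another counted locus, with U2.3 and U4.2 sharing the most. Small nuclear RNAs took 0.317% and 0.293% of the counts with HD adapters and 0.0823% and 0.110% with standard adapters. The called loci U2.2 to U2.7 had nearly the same levels, with means of 286 to 316 CPM. Whether the same reads were counted at each of them was not tested. The number of small nuclear RNAs called and their summed share are uncertain to that extent. Ribosomal RNA, whose share was higher with HD adapters as given above, lies outside these counts.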

How the data were processed

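The deposited values are read counts per locus, 1 file per library, as whole numbers from 1 up with loci at 0 left out. The labels name the TAIR10 build, while the sources used here do not give the read mapper, the counter, its strand setting or its handling of multiply matching reads. Loci were matched by identifier to RefSeq's TAIR10.1 annotation, which held 22444 of the 22546 loci in the 8 files. The 102 others took at most 0.322% of the counts of a wild-type library. Positions and exon lengths are from that annotation.

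CPM and TPM were computed here from the deposited counts after 5 ribosomal RNA loci were left out (Python 3.11.15, pandas 2.3.3). Counts were modelled with edgeR 4.0.16 in R 4.3.3 with filterByExpr, TMM scaling, 1 mean for each of the 4 groups of genotype and adapter, and no replicate block. The fit was checked on simulated counts. It called 28 of 100 loci changed 2-fold and 89 of 100 changed 4-fold, with 10 false calls, so most simulated 2-fold changes were missed. The changed loci were drawn over a wide range of levels, and the counts were simulated as independent. These rates may therefore not hold for the most abundant loci. The p-values of the fit are two-sided. They rest on the spread between the libraries within each group, which the fit takes as independent. Alternatives were DESeq2 1.42.0, other scaling and filters, a replicate block, fewer libraries, and other lengths or sets of loci.

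Named loci are the 30 of highest mean CPM, the 10 of highest mean TPM, up to 4 members of highest mean TPM per list (3 per marker list), and called loci among the first 100. The other loci named were chosen after their values were seen. The members, the 32 gene lists (277 entries), the 3 lists by product name, the pairs and the motifs were chosen with earlier results of these data known. An overlap of transcripts was described by shared 50-base words of the exons, on either strand. The trichome marker list is not reported here.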

Additional observations from a re-analysis of the deposited data

How the results depend on the processing

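With the ribosomal loci kept, the 10 most abundant loci took 33.7% of the counts, the 100 most abundant 53.9%, the antenna list 16.0%, and 62.75 loci on average made 50% of the counts. In TPM these values were 21.6%, 47.9%, 24.5% and 126 loci, and with median transcript lengths, an alternative added after seeing the data, 20.8%, 47.2%, 23.5% and 133 loci. Leaving out 1 library at a time gave 17.6% to 18.5%, 40.0% to 41.3%, 20.3% to 21.4%, and 247 to 277.7 loci. Either adapter alone, protein-coding loci alone, dropping loci with many shared words, and keeping 1 locus of each near-identical pair (added after seeing the data) moved none of these 4 values beyond the SD between libraries, or the number of loci by over 1.5 times.

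The adapter contrast gave 49 calls, 82 without the filter on low counts (67 higher, 15 lower with HD), and 38 to 58 when 1 library was left out. The labels do not say that a replicate number marks 1 RNA sample. Differences between replicates correlated between adapters at 0.271 in wild type and 0.0880 in dcl1 across 10234 loci, and 76 of the first 100 loci had the same replicate higher with both adapters in wild type. With 1 of the 2 correlations under 0.1, the numbers were not taken to pair the samples. Whether they do so in wild type is not known. With a replicate block there were 179 calls, 110 higher and 69 lower with HD adapters. AT3G43990 was called in 15 of 15 alternatives, LHCA1 in 10 and RBCS1B in 9. In the main fit the calls of LHCA1 and RBCS1B lie near the threshold. Over the 15 alternatives their log2 fold changes ran from -0.61 to -0.36 and from -0.65 to -0.33. The 2 libraries per adapter and the shared RNA limit all of these tests. The cause of these shifts was not tested.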

Other observations

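Nuclear loci that copy organelle sequence were counted, although no organelle-encoded locus was. The 77 nuclear loci that share at least 50% of their 50-base words with the chloroplast or mitochondrial genome took 0.156% and 0.179% of the counts with HD adapters and 0.0714% and 0.116% with standard adapters. Of these, 74 lie on chromosome 2, which in Arabidopsis carries a large insertion of mitochondrial DNA. The highest was AT2G07732, annotated with the catalytic domain of the large subunit of Rubisco, at 472 ± 208 CPM, followed by AT2G07706 at 314 ± 252 CPM. AT2G07706 was higher with HD adapters, with a log2 fold change of 2.43 (adjusted p 7.59e-08 by edgeR's quasi-likelihood test). Whether these reads come from the nuclear copies or from organelle RNA cannot be told apart.

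A locus annotated as a protein kinase, AT3G57770, overlaps the small nuclear RNA U2.3 over 591 bases on the other strand. It had 434.6 and 400.4 CPM with HD adapters and 106 and 153 with standard adapters, while U2.3 itself had a mean of 316 CPM, so its level as a messenger RNA is uncertain.

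The first 100 loci had shorter exons in sum than the 21109 protein-coding loci with a count, a median of 1385 against 1745 bases. They had a median of 3 against 4 exons and a median exonic GC content of 43.0% against 41.2%. Chromosome 1 held 33.0% ± 0.507 of the counts and chromosome 4 held 12.8% ± 0.210. Of the first 100 loci, 28 were on chromosome 1 and 14 on chromosome 4, and 16 had another of the 100 within 20000 bases. Of the 21846 loci with a count and a length, 5799 were on chromosome 1 and 3358 on chromosome 4.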
